A study of Mus musculus with 6 samples.

Results

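NKR-P1 receptors and Clec2 ligands are lectin-like membrane proteins encoded side by side in the NK gene complex of the mouse. The genes described here are the receptors Klrb1a, Klrb1b, Klrb1c and Klrb1f and the ligands Clec2d and Clec2i, chosen by symbol, and all 6 were found among the 47643 genes of the table. They were followed in NKT1 cells, the T-bet-expressing subset of invariant natural killer T (iNKT) cells, taken by flow sorting from thymuses of wild-type BALB/c animals, with 3 CD4-positive and 3 CD4-negative libraries. No treatment or allele is given for either group, and the labels do not say whether replicates are separate animals or pools, so p-values measure only the spread between these libraries, which may be technical. The comparison asks whether expression of these genes differs between NKT1 cells that carry and that lack the coreceptor CD4.

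NKR-P1 receptors sit on NK cells and on T cells with NK properties. Those of the activating type signal through adaptors such as the FcR gamma chain, while the inhibitory type carries an immunoreceptor tyrosine-based inhibitory motif (ITIM) that recruits the phosphatase SHP-1. Their ligands, the Clr proteins encoded by Clec2 genes, are structurally related to the receptors. NKR-P1B, the inhibitory receptor encoded by Klrb1b, binds Clr-b, the product of Clec2d, and NKR-P1F, encoded by Klrb1f, binds Clr-g, the product of Clec2i. NKR-P1C, encoded by Klrb1c, is the NK1.1 antigen by which NKT cells were first named in C57BL/6 mice, and BALB/c cells are not stained by the classical NK1.1 antibody although they carry the gene.

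The coding sequence of the cytoplasmic tail is shown for the 4 receptors because it sets the inhibitory receptor apart from the others and because its likeness bears on how reads were assigned. Each line holds 120 bases in frame, 5′ to 3′, from the reference transcript (GENCODE M21 on GRCm38, a C57BL/6 genome, so BALB/c bases may differ). Capitals mark the codons of the CxCP motif, which binds the kinase Lck, and in Klrb1b also those of the ITIM ahead of it. The windows cover codons 7 to 46 of Klrb1a, 2 to 41 of Klrb1b, 49 to 88 of Klrb1c (whose annotated coding sequence starts further upstream) and 1 to 40 of Klrb1f.
Klrb1a: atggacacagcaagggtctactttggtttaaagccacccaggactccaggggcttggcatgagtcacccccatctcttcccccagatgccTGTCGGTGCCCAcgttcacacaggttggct
Klrb1c: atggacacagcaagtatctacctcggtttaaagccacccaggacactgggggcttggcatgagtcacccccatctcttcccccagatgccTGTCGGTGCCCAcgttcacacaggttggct
Klrb1f: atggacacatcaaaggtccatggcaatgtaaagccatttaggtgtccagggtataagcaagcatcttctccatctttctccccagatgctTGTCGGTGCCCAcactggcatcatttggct
Klrb1b: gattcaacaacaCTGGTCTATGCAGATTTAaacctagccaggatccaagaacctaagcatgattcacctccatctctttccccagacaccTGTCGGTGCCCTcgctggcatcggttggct

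All 4 receptors had the CxCP codons, and an ITIM was found only in Klrb1b among the first 90 codons of the 4. Klrb1a and Klrb1c were identical at 92% of 676 aligned coding bases, and their longest identical run was 108 bases. Klrb1b was identical to Klrb1a at 84.4% and to Klrb1c at 86% of aligned bases, whereas Klrb1f reached 70.3% to 70.9% with the other receptors. For the ligands a stretch with their longest identical run, 58 bases in capitals, is shown because it is where reads of the ligands could be confused. It covers coding bases 105 to 222 of Clec2d and 141 to 258 of Clec2i, which were identical at 86.4% of 605 aligned bases.
Clec2d: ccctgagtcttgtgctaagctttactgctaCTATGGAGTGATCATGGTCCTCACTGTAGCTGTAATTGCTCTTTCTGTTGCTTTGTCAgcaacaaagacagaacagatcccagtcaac
Clec2i: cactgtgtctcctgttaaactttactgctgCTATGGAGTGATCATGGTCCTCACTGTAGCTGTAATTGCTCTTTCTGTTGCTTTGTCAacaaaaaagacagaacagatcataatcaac

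Sequence sharing was concentrated in Klrb1a, Klrb1b and Klrb1c. Of all distinct 50-base windows of a gene's transcripts, 9.92% in Klrb1a, 27.2% in Klrb1b and 17% in Klrb1c also occurred in another gene, against 4.1% in Clec2i, 1.98% in Clec2d and 0% in Klrb1f. Most shared windows of Klrb1b (591) and of Klrb1c (371) lay in Gm44511, an annotated gene that spans both, and this gene had only 9.61 estimated counts over all 6 libraries. Estimated counts were fractional in 3 libraries for Klrb1c, in 2 for Klrb1a and in 2 for Klrb1b, which marks reads divided between genes. The counts of Klrb1f, Clec2d and Clec2i were whole numbers (within 1e-06) in all 6 libraries. Values of Klrb1a, Klrb1b and Klrb1c are therefore less certain than those of the other genes. The cells are BALB/c and the build named in the submitters' processing notes, mm10, is a C57BL/6 sequence; how far base differences between the strains lower the counts of a member, and so its level, share and rank, was not tested.

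The libraries held 40480468 to 53145898 estimated counts. The libraries of replicate 3 follow another naming scheme than the rest, and those of replicate 1 held 466 (CD4-positive) and 523 (CD4-negative) counts of Y-linked genes, against 0 or 1 elsewhere. CD4-negative replicate 3 stood apart on the first principal component (46.3% of the variance, score 90.2 against -32.2 to 2.31). Mitochondrial transcripts made up 1.35% of counts in CD4-positive replicate 1 and 1.33% in CD4-negative replicate 3, against 3.51% to 5.19% in the other libraries. The sort marker Cd4 lay between 401 and 508 CPM (counts relative to the library total, scaled by the TMM method) among CD4-positive libraries, against 10.9 to 41.2 CPM among CD4-negative ones. The 8 genes listed for NKT1 cells include Zbtb16, Cd44 and Cd3e, which are not particular to that subset. These 8 genes summed to 3248 to 4308 CPM among CD4-positive libraries, against 3030 to 3689 CPM among CD4-negative ones. All 8 were tested and 0 passed. An unadjusted p under 0.05 by edgeR was found for 1 (Zbtb16), and 2 did not overlap (all tested genes 4.44% and 9.41%). Those 2 were Zbtb16 and Cd44, with CD4-positive means of 106 and 391 CPM, against CD4-negative means of 61.9 and 322 CPM. A higher level of either is thus no measure of NKT1 identity. Summed over 6 listed genes, NK cell markers gave 212 to 285 CPM among CD4-positive libraries, against 947 to 2134 CPM among CD4-negative ones, with granzyme A (Gzma) as the highest of them (means of 163 and 1243 CPM). Klra8 of that list had 1 count in all. Whether BALB/c cells can give counts of this gene was not tested, so its value is no measure of NK cells. None of the 6 passed the test (0 of the 5 tested, against 0.212% of all tested genes). Of these 5, 4 had an unadjusted p under 0.05 by edgeR (all tested genes 4.44%), and 4 did not overlap (all tested genes 9.41%). They were Gzma, Ncr1, Eomes and Klre1, with edgeR adjusted p from 0.0544 to 0.472. NKT2 markers gave 217 to 325 CPM among CD4-positive libraries, against 50.7 to 77.1 CPM among CD4-negative ones. Most of it was Izumo1r (means of 230 and 52.6 CPM). Of the 6 NKT2 genes, all tested, 2 passed (Izumo1r and Ccr4), against 0.212% of all tested genes. All 6 had a difference above 0, as 48.9% of all tested genes did. By edgeR 5 had an unadjusted p under 0.05 (all tested genes 4.44%), and 5 did not overlap (all tested genes 9.41%). B cell markers gave 51.4 to 75.7 CPM among CD4-positive libraries, against 105 to 115 CPM among CD4-negative ones, nearly all of it Ighm (0 of the 3 tested passed). Myeloid markers gave 1.13 to 1.33 CPM, against 1.96 to 2.65 CPM (0 of the 4 tested passed). Immature thymocyte markers gave 47, 16.3 and 98.3 CPM for CD4-positive replicates 1 to 3 (0 of the 5 tested passed). The sums were 50.7, 18.8 and 135 CPM for CD4-negative replicates 1 to 3, so replicate 3 was highest in both groups. NKT17 markers gave 0.79 to 2.72 CPM, against 1.31 to 4.57 CPM (0 of the 4 tested passed). Thymic epithelium markers gave 2.06 to 2.36 CPM, against 2.28 to 2.54 CPM (0 of the 3 tested passed). The marker lists were chosen with earlier results of these data known, so their counts beside the shares of all tested genes are a description. The part of other cells in the results below was not tested. In such bulk samples fewer cells that express a gene and less RNA per cell cannot be told apart.

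No gene of the family passed edgeR's quasi-likelihood test between CD4-positive and CD4-negative NKT1 cells, run across 12760 genes. The count was 0 of 6 at an adjusted p under 0.05, where 0.212% of all tested genes passed (27 genes; 0.0705% higher and 0.141% lower in CD4-positive cells). At an unadjusted p under 0.05 it was again 0 of 6, against 4.44% of all tested genes, and DESeq2 and limma-voom likewise called 0 of 6, with 0 at an unadjusted p under 0.05. In none of the 6 genes did the groups fall apart without overlap, as 9.41% of all tested genes did. Klrb1a and Klrb1f had a difference above 0 and the others one below 0, with a median of -0.13 on the log2 scale, against -0.01 over all tested genes. All 6 passed the filter on low counts, and each had an adjusted p of 1 by edgeR. Not passing is no proof of an equal level, and the intervals given below show what size of difference remains possible.

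**Figure D1:**
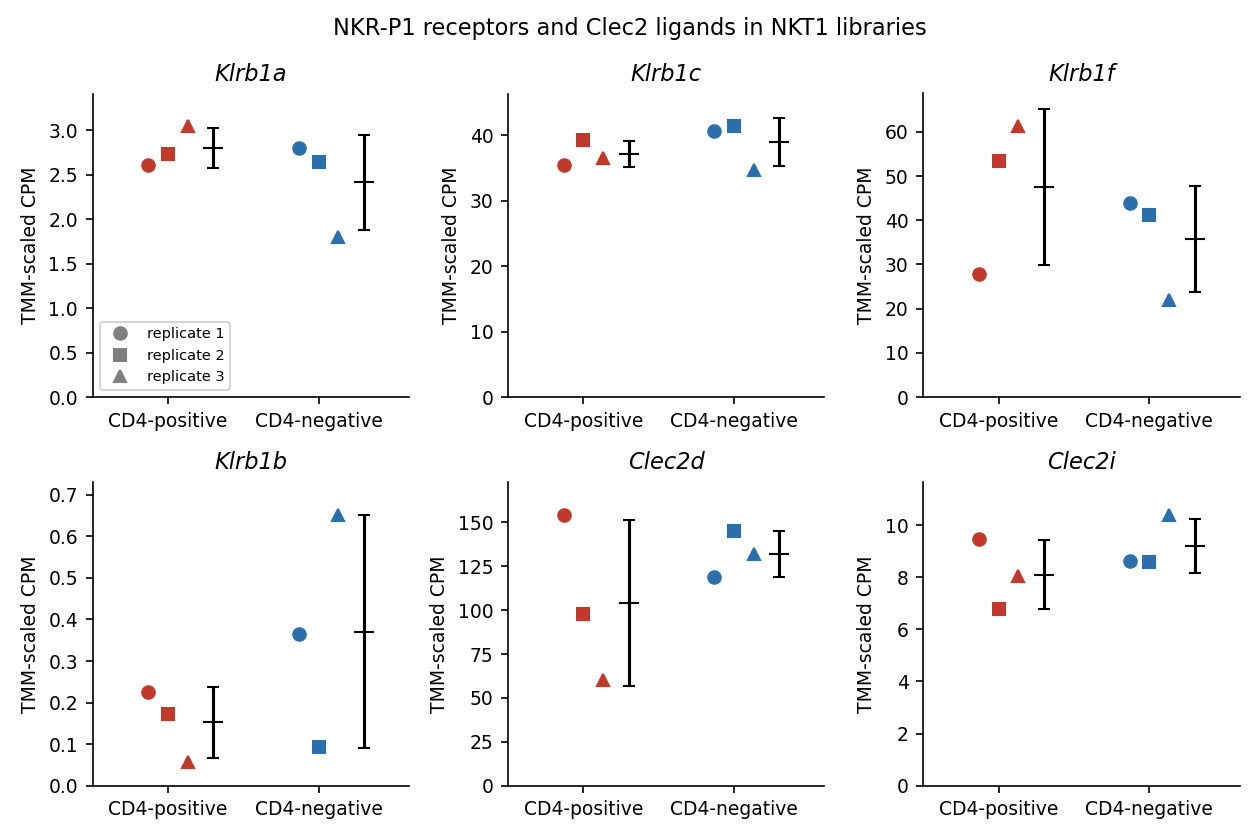
Level of each gene in TMM-scaled CPM (vertical axis, from 0, with its own scale per gene) in CD4-positive (red, left) and CD4-negative (blue, right) NKT1 libraries. Each symbol is a library, and the black bar gives mean ± SD of 3. The groups overlap in every panel; the widest relative spread is that of Klrb1b, which lies below 0.7 CPM throughout.

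Klrb1c, the NK1.1 receptor (chromosome 6, 128778485 to 128789215, minus strand), was the steadiest of the receptors. CD4-positive replicates 1 to 3 held 35.4, 39.3 and 36.6 CPM, against 40.8, 41.4 and 34.7 CPM for CD4-negative replicates 1 to 3. Its lowest and highest library differed 1.19-fold, with the lowest value in the CD4-negative library that stood apart. The CD4-positive mean was 37.1 ± 1.99 CPM, against a CD4-negative mean of 39.0 ± 3.70 CPM (SD, n = 3 each). The fold of CD4-positive over CD4-negative was 0.952, and its 95% interval of 0.745 to 1.22 lay within 1.5-fold in both directions (log2 -0.07, SE 0.15, edgeR adjusted p = 1).

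Klrb1f, the receptor for Clr-g (chromosome 6, 129045901 to 129057464, plus strand), varied more within the groups than between them. Its level was 27.8, 53.5 and 61.3 CPM for CD4-positive replicates 1 to 3, against 44.0, 41.2 and 22.0 CPM for CD4-negative replicates 1 to 3. The lowest library of each group was the one with a mitochondrial share near 1.3%, and the part of that share in the result was not tested. The CD4-positive mean was 47.5 ± 17.6 CPM, against a CD4-negative mean of 35.7 ± 12.0 CPM (SD, n = 3 each), a fold of 1.33 with a 95% interval of 0.739 to 2.39 (log2 0.41, SE 0.36, edgeR adjusted p = 1). Without both libraries of low mitochondrial share, an alternative added after seeing the data, the log2 difference was 0.43 with an edgeR adjusted p of 0.322, so it did not pass the test there either.

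Klrb1a, an activating-type receptor (chromosome 6, 128609227 to 128623533, minus strand), was expressed at a low level in every library. CD4-positive replicates 1 to 3 had 2.61, 2.74 and 3.05 CPM, against 2.80, 2.65 and 1.80 CPM for CD4-negative replicates 1 to 3. The low value was again that of CD4-negative replicate 3, and the other 5 libraries lay within 2.61 to 3.05 CPM. The fold of CD4-positive over CD4-negative was 1.16 with a 95% interval of 0.733 to 1.83 (log2 0.21, SE 0.28, edgeR adjusted p = 1).

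Klrb1b, the inhibitory receptor whose ITIM codons are capitalised above (chromosome 6, 128813706 to 128826331, minus strand), had few counts in every library. CD4-positive replicates 1 to 3 had 11.07, 9 and 3 estimated counts, against 17, 5.01 and 25 for CD4-negative replicates 1 to 3. On the CPM scale this is 0.0578 to 0.226 for the CD4-positive libraries, against 0.0925 to 0.652 for the CD4-negative ones, where 3 counts, the upper limit that a count of 0 allows by counting error alone, are worth 0.0565 to 0.0741 CPM. The value of CD4-positive replicate 3 was thus at that limit. The interval of the fold ran from 0.096 to 1.83 around 0.42 (log2 -1.25, SE 0.91, edgeR adjusted p = 1), so a lower level in CD4-positive cells could not be told from an equal one at this depth.

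Clec2d, which encodes Clr-b, a ligand found on most blood cells (chromosome 6, 129180615 to 129186534, plus strand), had the highest level of the family, also per length as given further on. Its level was 154.5, 97.7 and 60.2 CPM for CD4-positive replicates 1 to 3, against 118.9, 144.9 and 132.2 CPM for CD4-negative replicates 1 to 3. The CD4-positive libraries held both the highest and the lowest value, and the CD4-negative values lay between. The coefficient of variation was 45.6% over CD4-positive libraries, against 9.83% over CD4-negative ones, and this difference in spread was not tested. The CD4-positive mean was 104 ± 47.5 CPM, against a CD4-negative mean of 132 ± 12.98 CPM (SD, n = 3 each), a fold of 0.789 with a 95% interval of 0.469 to 1.32 (log2 -0.34, SE 0.32, edgeR adjusted p = 1). Leaving out CD4-positive replicate 1 gave a log2 difference of -0.74 (edgeR adjusted p = 0.915), and leaving out CD4-positive replicate 3 gave -0.06 (edgeR adjusted p = 1).

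Clec2i, which encodes Clr-g (chromosome 6, 128887588 to 128898167, plus strand), had a lower level and moderate spread, with a highest library 1.53 times the lowest. Its level was 9.46, 6.79 and 8.06 CPM for CD4-positive replicates 1 to 3, against 8.61, 8.61 and 10.4 CPM for CD4-negative replicates 1 to 3. The CD4-positive replicate 1 value lay within the CD4-negative range, and the other CD4-positive values lay below it. The fold was 0.88 with a 95% interval of 0.632 to 1.23 (log2 -0.18, SE 0.21, edgeR adjusted p = 1).

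Klrb1f and Clec2d ran in nearly opposite order over the libraries. From the highest to the lowest level of Clec2d the libraries were CD4-positive replicate 1, CD4-negative replicates 2, 3 and 1, and CD4-positive replicates 2 and 3. From the lowest to the highest level of Klrb1f they were CD4-negative replicate 3, CD4-positive replicate 1, CD4-negative replicates 2 and 1, and CD4-positive replicates 2 and 3. Only the place of CD4-negative replicate 3 differs between these orders. This was noticed after the values were seen and is given as a description of 6 libraries.

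**Figure D2:**
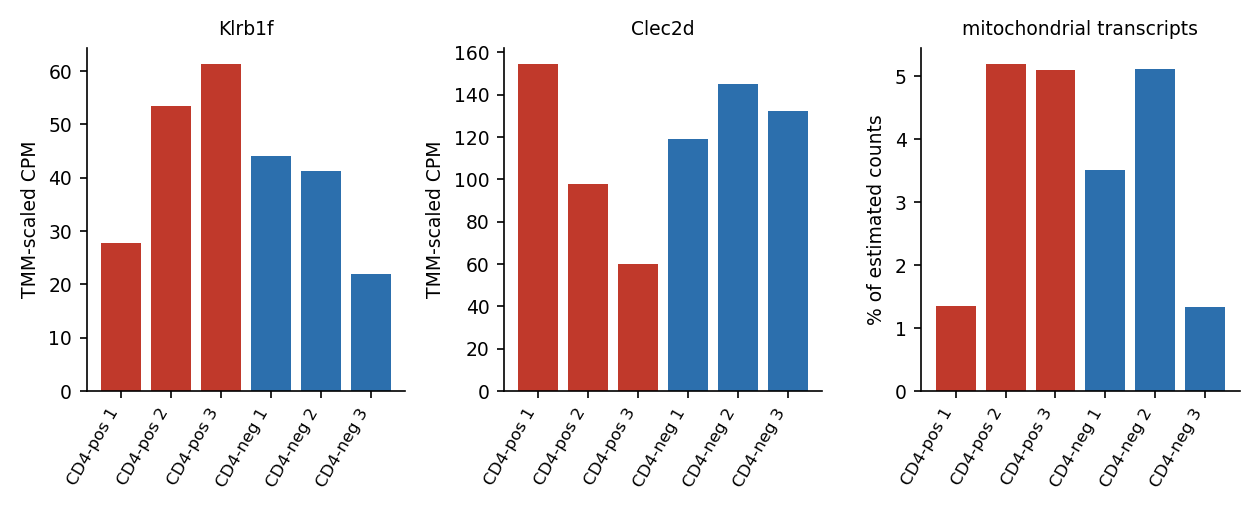
Levels of Klrb1f and Clec2d in TMM-scaled CPM and the share of mitochondrial transcripts in % of estimated counts (vertical axes, from 0), by library, with CD4-positive (red) left of CD4-negative (blue). CD4-positive replicate 1 and CD4-negative replicate 3 have both the lowest Klrb1f (27.8 and 22.0 CPM) and the lowest mitochondrial share (1.35% and 1.33%).

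To compare levels between genes, CPM was divided by the exonic length of each gene in kilobases. On this per-length scale the order of the mean levels was the same in both groups: Clec2d, Klrb1f, Klrb1c, Clec2i, Klrb1a and Klrb1b. The CD4-positive means of the leading 3 were 85.8 ± 39.2, 23.5 ± 8.67 and 12.5 ± 0.672 CPM per kilobase, against CD4-negative means of 109 ± 10.7, 17.6 ± 5.92 and 13.2 ± 1.25 (SD, n = 3 each). Clec2i and Klrb1a had CD4-positive means of 2.61 ± 0.43 and 1.75 ± 0.14 CPM per kilobase, against CD4-negative means of 2.96 ± 0.336 and 1.51 ± 0.337, and Klrb1b was at 0.0684 ± 0.0387 against 0.166 ± 0.126 (SD, n = 3 each). Klrb1f and Klrb1c are the only neighbours in this order whose library values overlapped.

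The make-up of the receptor transcripts varied with the level of Klrb1f, which by construction is also part of the sum behind each share. As a share of the per-length sum over the 4 receptors, Klrb1f made up 50%, 63.7% and 67.9% for CD4-positive replicates 1 to 3, against 58.1%, 56.5% and 45.2% for CD4-negative replicates 1 to 3. Klrb1c, the other main receptor, made up 27.7% to 43.6% over CD4-positive libraries, against 36.8% to 48.9% over CD4-negative ones, and its share was above that of Klrb1f in a single library, CD4-negative replicate 3. The inhibitory Klrb1b made up 0.0583% to 0.37% over CD4-positive libraries, against 0.115% to 1.22% over CD4-negative ones. The level per length of Clec2d, which encodes the ligand of that receptor, was 1.11 to 4.65 times the sum of all 4 receptors over CD4-positive libraries, against 2.62 to 4.54 times over CD4-negative ones. Clec2d was also 19.2 to 41.9 times as high per length as the ligand gene Clec2i over CD4-positive libraries, against 32.6 to 43.2 times over CD4-negative ones.

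The rest of the NKR-P1 and Clec2 genes were silent or nearly so. Of 9 further family genes in the table, 8 had no count in any of the 6 libraries: Klrb1 (which encodes NKR-P1G), the pseudogene Klrb1-ps1, Clec2e, Clec2f, Clec2h, Clec2j, Clec2l and Clec2m. A count of 0 allows up to 3 counts in each library. Clec2g had 19 counts in all, lay at 0 to 0.0964 CPM over CD4-positive libraries, against 0 to 0.204 CPM over CD4-negative ones, and was not tested.

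The family members lie within 577308 bases of chromosome 6, from 128609227 to 129186534, in which GENCODE M21 annotates 36 genes. Of these, 11 were tested, 18 had no count and 7 had counts but too few to be tested. Expressed members were interspersed with silent relatives: Klrb1c and Klrb1f lie on either side of Clec2f, which had no count, and of Clec2g. The highest of the tested genes that are no members was BC064078, a transcribed pseudogene between Clec2g and Clec2f, with a CD4-positive mean of 12.7 CPM, against a CD4-negative mean of 13.2 CPM (log2 -0.05, edgeR adjusted p = 1), named after its values were seen. None of the 11 tested genes of the region, 6 of them the members, passed the test (all tested genes 0.212%). An unadjusted p under 0.05 by edgeR was found for 0 of the 11 (all tested genes 4.44%). Of genes that overlap members on the opposite strand, BC035044 at the start of Clec2i had 304 counts and Gm44000 within Klrb1f had 48 counts in all. The strand setting of the counting is not given in the sources used here.

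**Figure D3:**
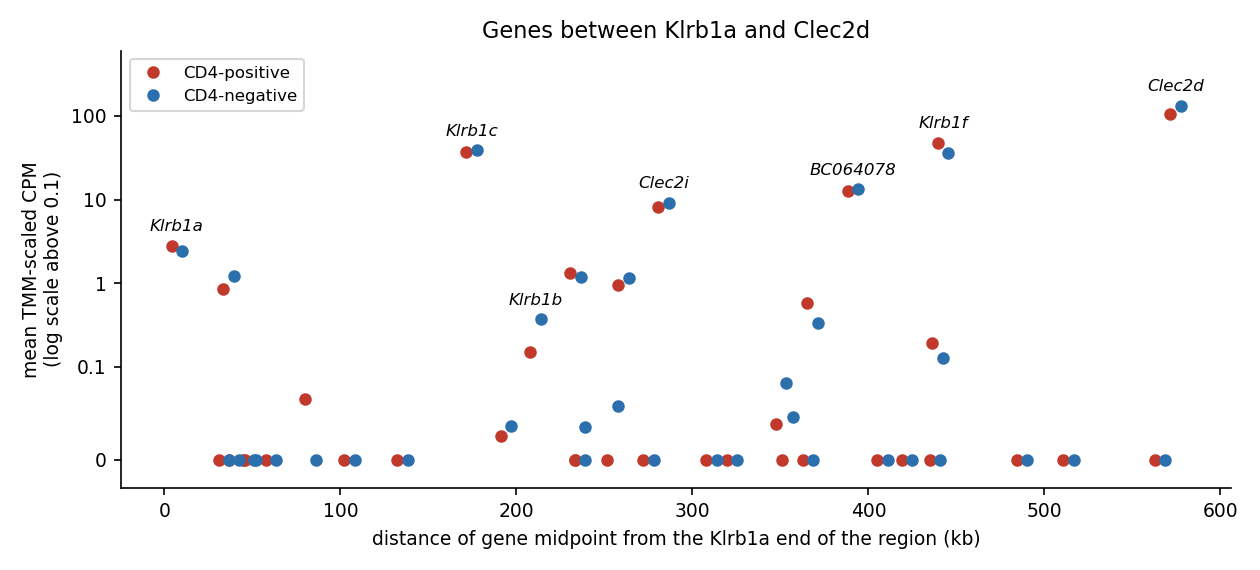
Mean TMM-scaled CPM of each of the 36 annotated genes between Klrb1a and Clec2d (vertical axis, log scale above 0.1 and linear below) against the distance of the gene's midpoint from the Klrb1a end in kb. Red points are CD4-positive and blue points CD4-negative means of 3 libraries, set slightly left and right of the midpoint. Most genes of the region lie at or near 0, and red and blue lie close together for Klrb1c, Klrb1f, Clec2d and Clec2i.

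Among genes that carry NKR-P1 signals, the kinase Syk passed the main test and was lower in CD4-positive cells. With the replicate number as a block, its edgeR adjusted p was 0.0558, so it did not pass there. Of 14 listed signalling genes, all tested, 1 was lower and 0 were higher at an adjusted p under 0.05 (background 0.212% of all tested genes in either direction). Their median log2 difference was -0.02 against -0.01 over all tested genes. By edgeR 3 had an unadjusted p under 0.05 (all tested genes 4.44%), and 3 did not overlap (all tested genes 9.41%). These were Syk, Fcer1g and Plcg2, each lower in CD4-positive libraries. Plcg2, named after its values were seen, had means of 5.93 and 16.1 CPM (log2 -1.44, edgeR adjusted p = 0.0993). The list was chosen with earlier results of these data known. Syk had 3.27, 3.7 and 2.08 CPM for CD4-positive replicates 1 to 3, against 20.2, 20.5 and 14.5 CPM for CD4-negative replicates 1 to 3 (log2 -2.61, SE 0.28, edgeR adjusted p = 0.0298). The call was lost when any library other than CD4-negative replicate 3 was left out (log2 -2.78 to -2.39, edgeR adjusted p = 0.104 to 0.18). NK cell, B cell and myeloid markers were also lower in sum among CD4-positive libraries. The NK cell markers summed to 212 to 285 CPM there, against 947 to 2134 CPM among CD4-negative libraries. The part of these cells in the values of Syk, Fcer1g and Plcg2 was not tested. Fcer1g, the FcR gamma chain through which NKR-P1C signals, had 49.4 to 57.9 CPM over CD4-positive libraries, against 97.4 to 110 CPM over CD4-negative ones, so the groups did not overlap, yet it did not pass (log2 -0.94, edgeR adjusted p = 0.0648); it is named for its role, after its values were seen. Lck, the kinase that binds the CxCP motif, and Ptpn6, which encodes SHP-1, had log2 differences of -0.07 and 0.02 (edgeR adjusted p = 1 for both).

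**Figure D4:**
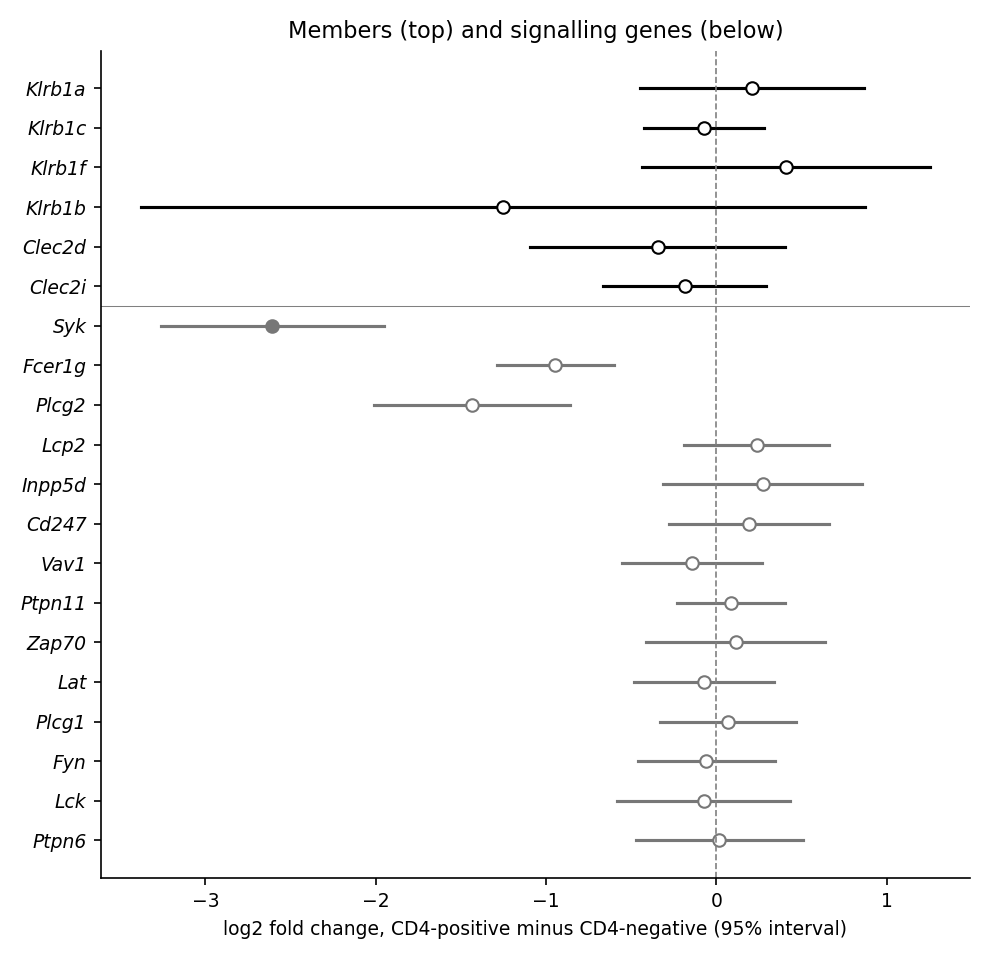
Log2 fold change of CD4-positive minus CD4-negative NKT1 libraries (horizontal axis) with its 95% interval for the 6 family members (black, top) and 14 signalling genes (grey, below). Filled points passed an adjusted p of 0.05 by edgeR, which is Syk alone (log2 -2.61); the intervals of all 6 members include 0.

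No other lectin-like gene of the NK gene complex passed the test. Of 27 listed genes 18 were tested by edgeR, with 5 at an unadjusted p under 0.05 (all tested genes 4.44%), 6 whose groups did not overlap (all tested genes 9.41%) and a median log2 difference of -0.31, against -0.01 over all tested genes. The lowest p-values were those of Klri1, with a CD4-positive mean of 9.1 ± 0.195 CPM, against a CD4-negative mean of 13.6 ± 0.662 CPM (edgeR adjusted p = 0.466), and of Klre1, at 40.6 ± 4.32 against 67.1 ± 14.9 CPM (edgeR adjusted p = 0.472; SD, n = 3 each). Their groups did not overlap, and neither did those of Klrc1, Klrc2, Klrg1 and Klrk1, named after their values were seen. This list too was chosen with earlier results known, so its counts are a description. Whether the members differ from these genes in their response was not tested.

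The pattern of each member over the 6 libraries was set beside that of all other genes with a mean of at least 5 CPM, by the root mean square distance of log2 CPM centred on each gene's mean. Klrb1f was nearest to Id2, an inhibitor of E proteins that NK and NKT cells need (distance 0.0767, against a median of 0.546 over 9171 genes), Cbl and Itgal. Id2 had 276, 584 and 613 CPM for CD4-positive replicates 1 to 3, against 418, 454 and 221 CPM for CD4-negative replicates 1 to 3, and was low in the same libraries as Klrb1f. Klrb1c was nearest to Taf6, Herpud2 and Ddhd2 (0.0197 to 0.0256, median 0.256), and Clec2i to Idh3g, Arrb2 and Creld1 (0.0329 to 0.0523, median 0.288). Clec2d was nearest to Ahdc1, Nsrp1 and Lrrfip2 (0.134 to 0.135, median 0.511), and Klrb1a to Gipc1, Hibch and Vsig10l (0.0551 to 0.0641, median 0.322). Klrb1b, with its few counts, had no close neighbour: Gm20425, the nearest, was at 0.398 (median 0.968). These distances are a description of 6 libraries. The labels state no batch, and the part of batch or depth in the distances was not tested.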

How the data were processed

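Stranded TruSeq mRNA libraries of sorted NKT1 cells (RNeasy Plus Micro RNA) were read in paired ends on a HiSeq4000, per the labels' protocols. The submitters' processing notes name STAR, Picard, RSEM and mm10, without roles or versions. The authors deposited estimated counts per gene, not normalised, which were rounded to whole numbers for testing. Neither annotation nor strand setting is given in the sources used here. Of the identifiers, 47224 of 47643 were found in GENCODE M21 (GRCm38, the assembly of mm10), which gave coordinates, exonic lengths and sequences. Columns were matched to samples by library name.

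Genes kept by filterByExpr were fitted in R 4.3.3 with edgeR 4.0.16 (TMM scaling, robust quasi-likelihood F test on group, 2-sided, Benjamini-Hochberg adjustment over all tested genes, threshold 0.05), after tests on simulated data. SEs and 95% intervals derive from the F statistic. Log2 CPM used a prior count of 2. The alternatives tried were scaling by RLE or upper quartile, DESeq2 1.42.0, limma-voom (limma 3.58.1), other filters on low counts, a replicate block, a batch term for the naming scheme of the libraries, a threshold of 0.01 and leaving out each library. Leaving out both libraries of low mitochondrial share was added after seeing the data.

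Counts limit the precision: 1 count is worth 0.0188 to 0.0247 CPM, by counting error only. Members and lists were chosen with earlier results of these data known. Named genes are the members, list genes that passed or else the 2 lowest p-values, and the 3 nearest genes in pattern, with exceptions stated.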

Additional observations from a re-analysis of the deposited data

How the results depend on the processing

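The number of members called was 0 under every alternative run, and none of the members' differences changed sign in any of them. At an unadjusted p under 0.05 by edgeR, Clec2d passed without CD4-positive replicate 1 (1 member), and Clec2d and Klrb1f without both libraries of low mitochondrial share (2 members). Members could not be given a value where they fell below a filter: Klrb1a and Klrb1b at a mean of at least 5 CPM, and Klrb1b without both libraries of low mitochondrial share. Over all genes the main 27 calls became 162 with DESeq2, 67 with no filter on low counts, 11 with a batch term for the naming scheme of the libraries, 2 at a threshold of 0.01 and 66 without both libraries of low mitochondrial share. Leaving out single libraries gave 0 to 44 calls, with 44 (11 higher and 33 lower) only without CD4-negative replicate 3 and 0 (439 to 585 at an unadjusted p under 0.05) without any of the other 5; these fits have fewer samples. The replicate number as a block gave 0 calls by edgeR (531 at an unadjusted p under 0.05). Syk was at a log2 difference of -2.63 with an adjusted p of 0.0558 under that block. Deviations from the group mean of libraries with the same number correlated at -0.0798, 0.343 and 0.0362 for replicates 1, 2 and 3. Not every library correlated best with its own number, and the labels state no pairing, so the main test had no block. This check cannot settle pairing, since the best match of CD4-positive replicate 1 (0.244) was CD4-negative replicate 3, also of low mitochondrial share. Both replicate 1 libraries held Y-linked counts, and both replicate 3 libraries share a naming scheme. Whether same-numbered libraries share an origin was not tested. Leaving out single libraries moved the log2 difference most for Klrb1b (-1.72 to -0.57), Clec2d (-0.74 to -0.06) and Klrb1f (0.16 to 0.68), and least for Klrb1c (-0.14 to -0.02). Depth limits Klrb1b, with 70.08 estimated counts in all.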
